A study of Mus musculus with 9 samples.

Results

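The SOX transcription factors are described here through 10 members of the family, Sox2, Sox4, Sox5, Sox6, Sox9, Sox10, Sox11, Sox12, Sox13 and Sox15, which were taken by gene symbol and matched to 10 of 55450 genes in a count table of mouse mammary cells. Counts came from RNA sequencing of EYFP+ live cells sorted by FACS from mammary glands of adult nulliparous mice, with 3 libraries in each of 3 groups. All mice carried lsl-EYFP, a fluorescent reporter switched on by Cre recombinase, and K8CreERT2, a tamoxifen-inducible Cre under the promoter of the luminal keratin gene Krt8. Control mice had these alleles alone, LATS1/2-KO mice had floxed Lats1 and Lats2 in addition (LATS1/2 f/f), and LATS1/2-Sox9-KO mice also had floxed Sox9 (LATS1/2 f/f and Sox9 f/f). Every mouse, controls included, received 5 daily doses of 2 mg tamoxifen, and cells were sorted 7 days after the last dose. The sort was on the reporter, so a sorted cell that had switched on EYFP need not have lost every floxed allele. Libraries held from 44167762 to 47003587 in control, from 50508666 to 61745346 in LATS1/2-KO and from 55503365 to 61967651 counts in LATS1/2-Sox9-KO.

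SOX proteins bind DNA through the HMG box, a domain first described in the sex-determining factor SRY, and they bend the DNA they bind. Members are grouped by the likeness of this box: SOX2 belongs to SoxB1, SOX4, SOX11 and SOX12 to SoxC, SOX5, SOX6 and SOX13 to SoxD, SOX9 and SOX10 to SoxE, and SOX15 to SoxG. In the mammary gland SOX9 is known from luminal progenitor cells and SOX10 from stem-like and progenitor cells, and in cartilage SOX5 and SOX6 act as partners of SOX9. LATS1 and LATS2 are kinases of the Hippo pathway that restrain the coactivators YAP and TAZ, which reach DNA through TEAD factors. The comparison of LATS1/2-KO with control asked what the loss of these kinases changes, and that of LATS1/2-Sox9-KO mice with LATS1/2-KO mice asked what changes when Sox9 is removed as well.

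The kinship of the members shows in the 60 bases that code for the start of the HMG box, taken from GENCODE M21 transcripts of GRCm38. They are shown for the 6 members the results turn on, 5′ to 3′ on the coding strand, and capitals mark the bases that differ from Sox9.
Sox9: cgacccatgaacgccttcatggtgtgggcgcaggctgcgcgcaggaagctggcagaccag
Sox10: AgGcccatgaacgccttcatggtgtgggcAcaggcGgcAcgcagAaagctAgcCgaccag
Sox4: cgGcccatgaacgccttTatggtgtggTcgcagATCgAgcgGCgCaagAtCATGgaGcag
Sox11: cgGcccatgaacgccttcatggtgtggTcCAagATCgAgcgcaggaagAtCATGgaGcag
Sox5: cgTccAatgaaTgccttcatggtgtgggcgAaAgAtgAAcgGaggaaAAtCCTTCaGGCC
Sox6: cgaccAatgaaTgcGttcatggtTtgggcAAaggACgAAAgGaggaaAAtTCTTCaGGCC
Of these 60 bases Sox10 shared 52 with Sox9, Sox11 shared 46, Sox4 shared 44, Sox5 shared 40 and Sox6 shared 37. Exact matches between transcripts were short. The longest stretch that Sox4 and Sox11 had in common was 48 bases and that of Sox9 and Sox10 was 44 bases, so that reads lying wholly inside such a stretch could not be assigned to 1 gene.

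The targeted genes were examined first because they check the labels. Lats1 had 5672, 5928 and 5940 normalized counts in the control libraries, with counts put on the scale of a library of average effective size. It had 2090, 1923 and 2336 in the libraries labelled LATS1/2-KO and 2058, 1844 and 1709 in those labelled LATS1/2-Sox9-KO, every one of them below every control library. Lats2 had 1039, 865 and 1220 normalized counts in control, 1256, 1434 and 1723 with the label LATS1/2-KO and 1957, 1580 and 1240 with the label LATS1/2-Sox9-KO. Its gene-level count was therefore not lower under either deletion label, and the groups are called below by what the libraries are labelled. Counts summed over a gene keep the reads of exons that a floxed allele leaves in place, and whether this accounts for the counts of Lats2 or of Sox9 was not tested. Luminal keratin transcripts were abundant in all groups. Of 4 luminal epithelial markers, Krt8, Krt18, Krt19 and Epcam, Krt19 was called lower in LATS1/2-KO against control (log2 fold change -1.03), a call that ended without LATS1/2-KO replicate 2 (-0.82) or 3 (-0.95) or control replicate 3 (-0.92). Of all tested genes 17.5% were called lower in that comparison. In LATS1/2-Sox9-KO against control Krt8 (1.26) and Krt18 (1.53) were called higher and Epcam (-1.30) lower, named after their values were seen, beside 17.8% and 19.6% of all tested genes. Krt8, whose promoter drives the Cre, had 172911, 168801 and 215996 normalized counts in control, 293113, 265244 and 276034 in LATS1/2-KO and 461318, 444607 and 431250 in LATS1/2-Sox9-KO.

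Levels of the members per length set Sox9 and Sox4 far above the others in control cells. On the scale of normalized counts per kb of exon, the level of Sox9 was 5223 ± 407 (SD, n = 3) and that of Sox4 was 4141 ± 1025 (SD, n = 3), and the libraries of these neighbours overlapped. Sox10 followed with a level of 876, Sox13 with 437 and Sox12 with 381. The libraries of Sox13 overlapped those of both Sox10 and Sox12. Sox15 had a level of 127, Sox6 of 40.1 and Sox5 of 8.89, and the libraries of these genes were separate from those of their neighbours. Sox11 was at 0.0465 and Sox2 had no count in any control library. Of the summed level of the members, Sox9 held 46.5% and Sox4 36.9%.

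The order changed under the deletion labels. In the libraries labelled LATS1/2-KO, Sox4 led with a level of 4669, above Sox9 at 2349 in every library, and Sox11 reached 474 per kb, overlapping both Sox10 at 745 and Sox13 at 258. In the libraries labelled LATS1/2-Sox9-KO the order was Sox4 at 3457, Sox9 at 1776, Sox10 at 653, Sox11 at 194 and Sox13 at 172, and the libraries of these neighbours were separate when length was taken over all exons. Sox9 then held 26.9% and 28% of the summed level, Sox4 53.5% and 54.5%, and Sox11 5.43% and 3.05%. These shares depend on one another, since a fall of Sox9 raises the share of every other member. The longest transcript in place of all exons would put Sox5 at 17.7 and Sox6 at 68.7 per kb in control, without a change in the order of the members there. Under the label LATS1/2-KO it would put Sox6 (77.8) above Sox15 (75), and under LATS1/2-Sox9-KO it would put Sox13 (201) above Sox11 (194), with overlapping libraries in both cases.

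**Figure D1:**
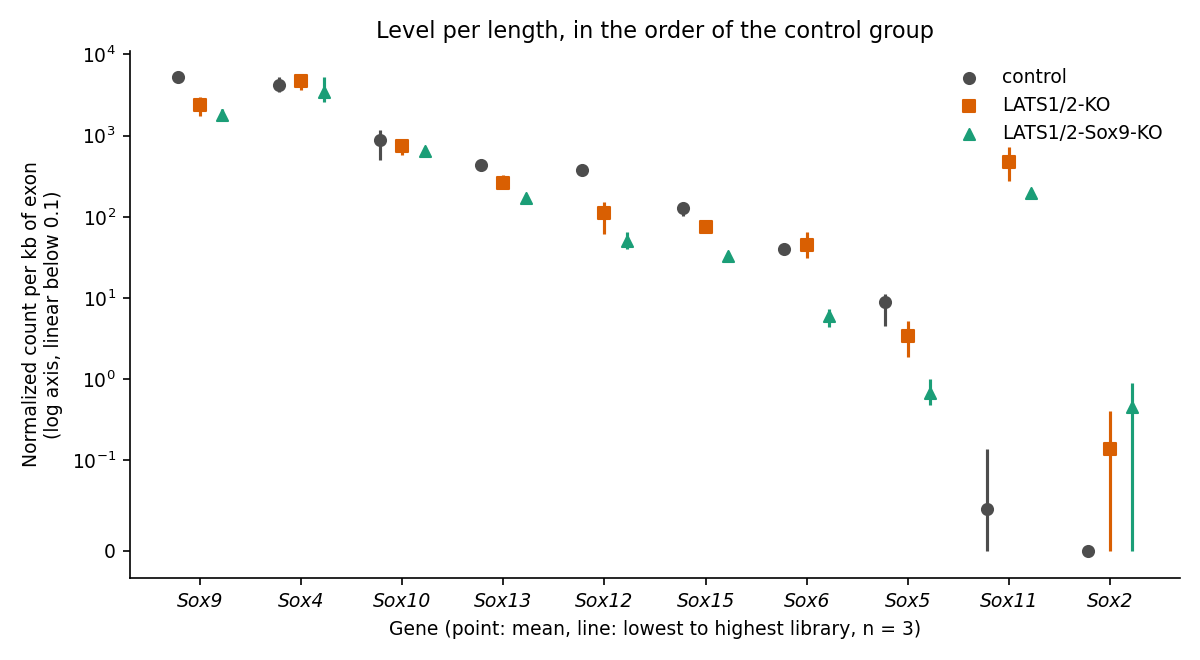
Normalized count per kb of exon (log axis) of the 10 Sox genes in the 3 groups, with points for means and lines from the lowest to the highest of 3 libraries. Sox9 stands at 5223 in control and at 2349 and 1776 under the deletion labels, while Sox11 goes from 0.0465 to 474 and 194.

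Of the 10 members, 9 passed the filter on low counts and were tested with edgeR's quasi-likelihood test over 19357 genes, and a gene was called at a log2 fold change beyond 1 in either direction with an adjusted p of at most 0.05. In the libraries labelled LATS1/2-KO, 1 tested member was called higher than in control (Sox11) and 3 were called lower (Sox12, Sox5 and Sox9). Among all tested genes, 17.1% were called higher and 17.5% lower in this comparison. The median log2 fold change of the 9 members was -0.76, beside 0.04 for all genes tested. In the libraries labelled LATS1/2-Sox9-KO against those labelled LATS1/2-KO no tested member was called higher and 4 were called lower (Sox6, Sox5, Sox11 and Sox15). With a library left out the lower calls numbered 1 to 4 among members and 78 to 582 among all genes. Those of members numbered 1 with only these groups in the fit and 2 with a replicate block. In that comparison 1.55% of all genes were called higher and 2.16% lower, and the median was -1.11 for the members and -0.02 for all genes. Against control, the libraries labelled LATS1/2-Sox9-KO had 1 member called higher (Sox11) and 6 called lower (Sox5, Sox12, Sox6, Sox15, Sox9 and Sox13), where 17.8% of all genes were called higher and 19.6% lower and the medians were -1.56 and 0.01. The libraries of the groups did not overlap for 5 of the 9 members in LATS1/2-KO against control, where this held for 61.6% of all tested genes. It held for 5 members and 27.9% of genes between the deletion labels, and in LATS1/2-Sox9-KO against control for 7 members and 68.8% of genes. The 3 comparisons share libraries, so they are not separate pieces of evidence. In such sorted bulk samples fewer cells that express a gene and less of its RNA per cell cannot be told apart.

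**Figure D2:**
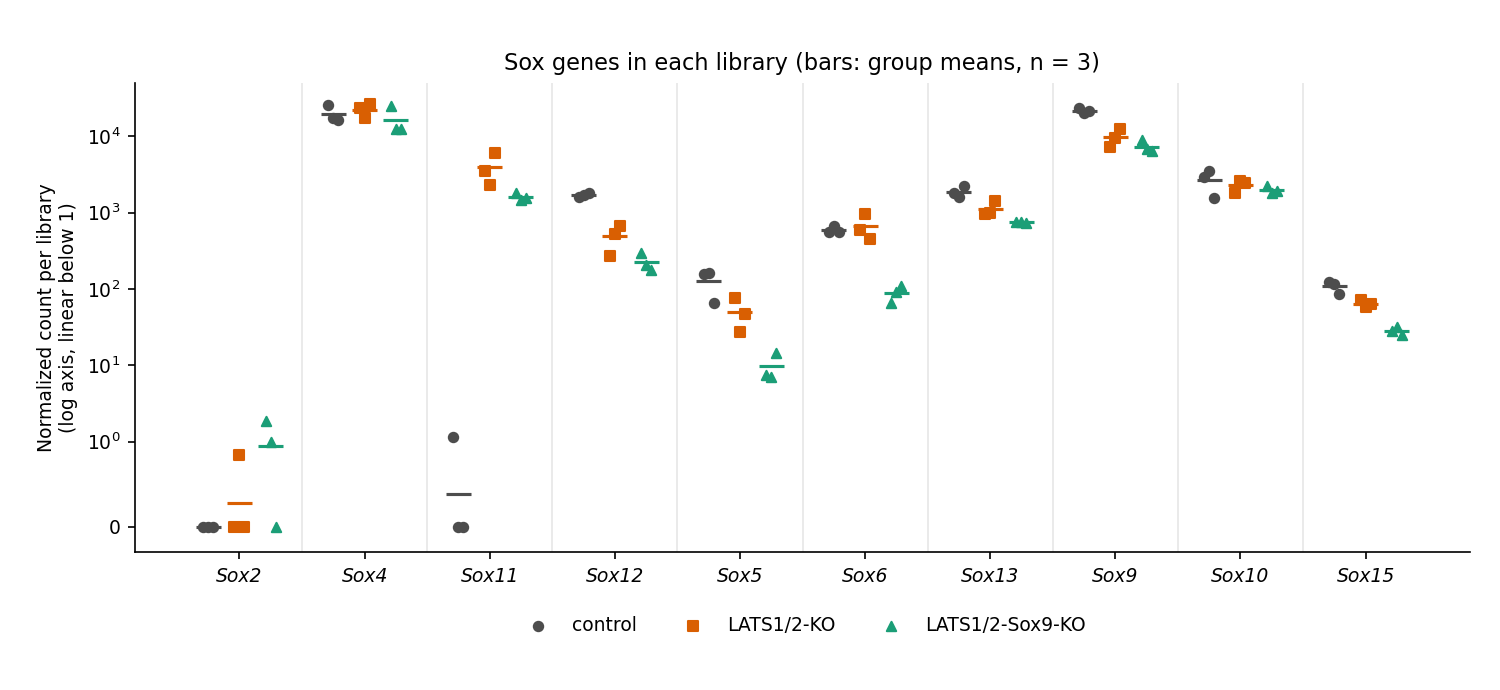
Normalized counts of the 10 Sox genes in each of the 9 libraries (log axis, linear below 1), with bars at group means (n = 3). Sox11 has at most 1.16 in control and between 1459 and 6044 in the other libraries, and Sox6 lies between 65.9 and 110 in LATS1/2-Sox9-KO and at 455 or more in the other groups.

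**Figure D3:**
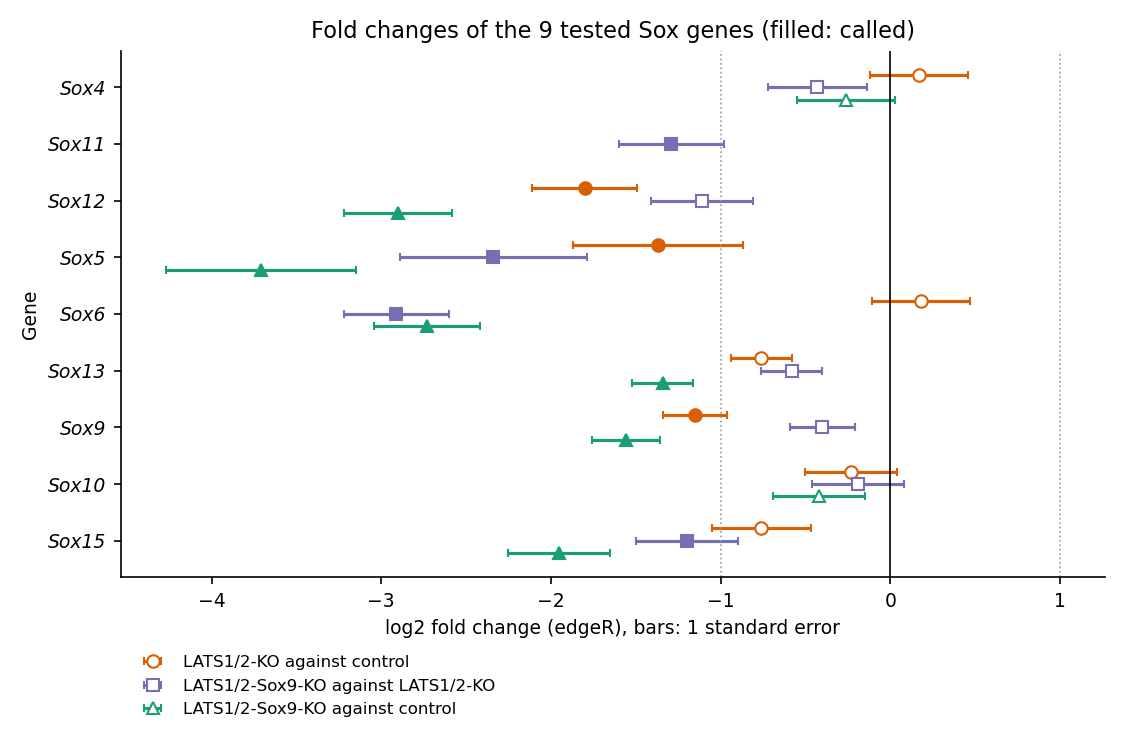
log2 fold changes of the 9 tested Sox genes from edgeR in the 3 comparisons, with bars of 1 standard error, filled symbols for called genes and dotted lines at -1 and 1. Sox11 against control is not drawn, since its control libraries hold 0 or 1 count, and Sox6 stands at -2.91 and -2.73 in the comparisons with LATS1/2-Sox9-KO but at 0.18 in LATS1/2-KO against control.

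The SoxC genes gave 3 different patterns. Sox4 (ENSMUSG00000076431, chr13:28948919-28953713), a factor of epithelial and neural progenitors, had 25494, 17559 and 16509 normalized counts in control, 23317, 17321 and 26520 in LATS1/2-KO and 25026, 12388 and 12316 in LATS1/2-Sox9-KO. The libraries of all groups overlapped and none of the 3 comparisons was called. Its log2 fold change in LATS1/2-KO against control was 0.17 with a 95% interval from -0.40 to 0.75, which leaves room for a change of either sign (adjusted p = 0.641, edgeR). The interval between the deletion labels ran from -1.01 to 0.14.

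Sox11 (ENSMUSG00000063632, chr12:27334264-27342574), a factor best known from developing neurons, was all but absent from control cells. Its counts there were 1, 0 and 0, whereas the libraries labelled LATS1/2-KO had 3500, 2272 and 6044 normalized counts and those labelled LATS1/2-Sox9-KO had 1797, 1459 and 1573. Against a floor of 3 counts per library, the mean of LATS1/2-KO was at least 1113-fold higher (adjusted p = 9.1e-07, edgeR). That of LATS1/2-Sox9-KO was at least 455-fold higher (adjusted p = 9.29e-07, edgeR). Single libraries can lie below these values, and Sox11 passed the filter only through the deletion labels. The libraries labelled LATS1/2-Sox9-KO all lay below those labelled LATS1/2-KO, with a log2 fold change of -1.29 ± 0.31 (SE) and an adjusted p of 0.0372 from edgeR. That last call was lost in 7 of 14 alternatives of processing. Without LATS1/2-KO replicate 3, the library with the most Sox11 counts, the log2 fold change was -0.84 (adjusted p = 0.0997, edgeR), and leaving out any library labelled LATS1/2-Sox9-KO or control replicate 1 or 2 also ended the call, with log2 fold changes from -1.35 to -1.20. Within single libraries Sox11 made 15, 13.1 and 22.8 counts per 100 of Sox4 under the label LATS1/2-KO and 7.18, 11.8 and 12.8 under LATS1/2-Sox9-KO, a measure that no scaling between libraries can move. All 3 of the latter ratios lay below all 3 of the former.

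Sox12 (ENSMUSG00000051817, chr2:152393611-152398063), the least studied gene of the group, went the other way. It had 1602, 1700 and 1783 normalized counts in control, 272, 521 and 671 in LATS1/2-KO and 293, 207 and 179 in LATS1/2-Sox9-KO. Every library under either deletion label lay below every control library, with a log2 fold change of -1.80 ± 0.31 (SE, adjusted p = 0.000714, edgeR) in LATS1/2-KO and -2.90 ± 0.32 (SE, adjusted p = 3.93e-05, edgeR) in LATS1/2-Sox9-KO. The difference between the deletion labels was -1.11 ± 0.30 (SE) and was not called (adjusted p = 0.0608, edgeR), and these libraries overlapped. It was called without LATS1/2-KO replicate 1 (-1.39, adjusted p = 0.00819, edgeR), by DESeq2 and under both other filters on low counts.

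Of 6 genes listed as known targets of SOX4 and SOX11, 5 were tested, and 1 was called lower and none higher in LATS1/2-KO against control, where 17.5% of all genes were called lower and 17.1% higher. In LATS1/2-Sox9-KO against control 2 were called higher (Tubb3 and Map2) and 1 lower, beside 17.8% and 19.6% of all genes. The lower one in both was Tead2, which encodes a TEAD factor. It had 12164, 14192 and 17154 normalized counts in control, 3016, 1871 and 3626 in LATS1/2-KO and 1293, 996 and 1202 in LATS1/2-Sox9-KO, without overlap between any groups. Its log2 fold change was -2.35 ± 0.24 (SE, adjusted p = 2.83e-05, edgeR) in LATS1/2-KO against control and -1.29 ± 0.23 (SE, adjusted p = 0.0142, edgeR) between the deletion labels, where the call was lost without LATS1/2-Sox9-KO replicate 2 (-1.16, adjusted p = 0.069, edgeR). Dcx, a marker of migrating young neurons, had at most 3 counts in every library. Tubb3, a neuronal tubulin gene, had between 9.03 and 64.1 normalized counts in all 9 libraries and was not called in LATS1/2-KO against control (log2 fold change 1.33, adjusted p = 0.108, edgeR), though it was without LATS1/2-KO replicate 1 (1.78, adjusted p = 0.0112, edgeR). Tubb3, Map2 and Dcx are named here after their values were seen.

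The SoxD genes, whose proteins have no activation domain of their own, had their lowest counts under the label LATS1/2-Sox9-KO. Sox6 (ENSMUSG00000051910, chr7:115470872-116038796) had 551, 678 and 556 normalized counts in control and 595, 973 and 455 in LATS1/2-KO, which overlapped. Under the label LATS1/2-Sox9-KO it had 65.9, 92.7 and 110, all far below both other groups. The log2 fold change against LATS1/2-KO was -2.91 ± 0.31 (SE, adjusted p = 0.0023, edgeR), a 7.52-fold difference, and that against control was -2.73 ± 0.31 (SE, adjusted p = 5.00e-05, edgeR). Between LATS1/2-KO and control the interval of its log2 fold change was -0.38 to 0.75 and the test made no call (adjusted p = 0.622, edgeR). The call against LATS1/2-KO was kept in all 15 alternatives of processing, each single library left out included, with values from -3.13 to -2.52. No other member kept its call in that comparison in every alternative.

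Sox5 (ENSMUSG00000041540, chr6:143828425-144781977) was counted at a lower level throughout. It had 158, 160 and 66.0 normalized counts in control, 75.2, 27.1 and 46.5 in LATS1/2-KO and 7.43, 6.98 and 14.6 in LATS1/2-Sox9-KO. Control and LATS1/2-KO libraries overlapped, while those labelled LATS1/2-Sox9-KO lay below all others. The log2 fold changes were -1.37 ± 0.50 (SE, adjusted p = 0.0387, edgeR) for LATS1/2-KO against control, -2.34 ± 0.55 (SE, adjusted p = 0.0360, edgeR) between the deletion labels and -3.71 ± 0.56 (SE, adjusted p = 0.000308, edgeR) for LATS1/2-Sox9-KO against control. Only the last of these was kept in every alternative that tested it. The first was lost without either of LATS1/2-KO replicates 2 and 3 or control replicates 1 and 2, with log2 fold changes from -1.32 to -1.09. The second was lost without any single library other than LATS1/2-KO replicate 2 and control replicate 3, with log2 fold changes from -2.74 to -1.91 and adjusted p-values from edgeR up to 0.139. An antisense transcript, Sox5os1, overlaps exons of Sox5 on the opposite strand, as Gm26735 does those of Sox4. The methods describe counts of pairs on the same strand and name a kit that does not mark strand. How reads of such overlapping genes were shared between them was not tested.

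Sox13 (ENSMUSG00000070643, chr1:133382303-133424377), the third SoxD gene, stepped down from group to group. It had 1821, 1598 and 2230 normalized counts in control, 954, 976 and 1408 in LATS1/2-KO and 746, 743 and 740 in LATS1/2-Sox9-KO, and no groups overlapped. Only LATS1/2-Sox9-KO against control reached the fold threshold, with a log2 fold change of -1.34 ± 0.18 (SE, adjusted p = 0.000158, edgeR). LATS1/2-KO against control gave -0.76 ± 0.18 (SE, adjusted p = 0.00519, edgeR), and the deletion labels differed by -0.58 ± 0.18 (SE, adjusted p = 0.0887, edgeR).

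For orientation, the bases before a start site of Sox5, Sox6 and Sox11 are shown, since the comparisons between groups turn on these genes. The sequences are RefSeq promoters of GRCm38.p6, read 5′ to 3′ on the gene's strand (the minus strand in each case), with bases inside annotated exons left out. Capitals mark ACAAT, the core that SOX proteins bind, and GGAATG, a TEAD motif, searched on both strands, where they appear as ATTGT and CATTCC. The stretches are chr6:143947107-143947356 for Sox5, chr7:116038797-116038994 for the outermost of the Sox6 start sites listed and chr12:27342719-27342968 for Sox11. That of Sox5 lies before a start site inside the gene, whose annotated 5′ end is at 144781977. No window at that end of Sox5 was listed.
Sox5: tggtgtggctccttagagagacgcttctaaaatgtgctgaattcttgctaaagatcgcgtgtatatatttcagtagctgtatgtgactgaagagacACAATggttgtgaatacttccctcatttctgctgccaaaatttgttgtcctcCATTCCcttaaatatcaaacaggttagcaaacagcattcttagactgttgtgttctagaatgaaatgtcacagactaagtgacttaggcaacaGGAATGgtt
Sox6: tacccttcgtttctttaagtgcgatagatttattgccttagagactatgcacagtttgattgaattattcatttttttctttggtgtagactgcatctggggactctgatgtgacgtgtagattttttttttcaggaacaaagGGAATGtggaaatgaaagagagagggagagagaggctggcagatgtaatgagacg
Sox11: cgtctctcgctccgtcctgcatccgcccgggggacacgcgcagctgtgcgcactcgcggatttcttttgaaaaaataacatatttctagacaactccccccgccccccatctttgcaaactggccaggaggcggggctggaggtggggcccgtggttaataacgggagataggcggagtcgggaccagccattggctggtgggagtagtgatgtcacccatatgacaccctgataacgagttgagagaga
The stretch of Sox5 held 1 SOX core and 2 TEAD motifs, that of Sox6 held 1 TEAD motif and no SOX core, and that of Sox11 held none of these letters. Of all 32851 RefSeq promoter windows of 250 bases, 27.7% held the SOX core and 12.6% the TEAD motif. Entries were found for 8 of the 10 members, with 13 windows in all, of which 5 held the SOX core and 4 the TEAD motif. Sox6 alone had 6 of the 13 windows, and 3 of its windows not shown held 2, 2 and 3 SOX cores. Such a match is a run of letters and not a measured binding site.

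Among the SoxE genes, Sox9 (ENSMUSG00000000567, chr11:112782224-112787760), the gene deleted by design in the third group, had 23313, 19947 and 21532 normalized counts in control. It had 7205, 9506 and 12433 in LATS1/2-KO, where it was not floxed, and 8813, 6756 and 6460 in LATS1/2-Sox9-KO. Both deletion labels lay below control in every library and overlapped each other, and the 95% interval of the log2 difference between them was -0.78 to -0.03 (adjusted p = 0.25, edgeR). The log2 fold change was -1.56 ± 0.20 (SE, adjusted p = 9.39e-05, edgeR) for LATS1/2-Sox9-KO against control. In LATS1/2-KO against control it was a 2.22-fold difference, which was called but fell just short of the fold threshold without LATS1/2-KO replicate 1 (log2 fold change -0.97, adjusted p = 0.00135, edgeR). The gene-level count thus did not separate the libraries labelled as lacking Sox9 from those labelled LATS1/2-KO, and the directions given for the label LATS1/2-Sox9-KO rest on that label. LATS1/2-KO replicate 1 also stood apart in markers of cell types. Its sum of 7 fibroblast markers was 8476 normalized counts, beside 2279 and 2780, and each of the 7 was highest there in its group. Its sum of 8 mature luminal markers was 31440, beside 21833 and 21462. Of these, Gata3 was lowest there and Ly6a was not highest, and the others were highest. Its sum of 8 luminal progenitor markers was 129506, beside 197097 and 155850. The part of these differences in the Sox9 call was not tested. Over the 9 libraries the genes most alike to Sox9 by Pearson's r of log2 CPM, among 11811 genes compared, were Zfp652 (r = 0.997), Gigyf1 (0.996) and Rnf166 (0.992). These 9 points share 3 groups, so such values describe a group pattern.

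Sox10 (ENSMUSG00000033006, chr15:79154908-79165240), known from neural crest, glia and melanocytes as well as the mammary gland, was not called in any comparison. It had 2919, 3557 and 1541 normalized counts in control, 1783, 2585 and 2447 in LATS1/2-KO and 2205, 1829 and 1946 in LATS1/2-Sox9-KO, and all groups overlapped. The log2 fold changes were -0.23 (interval -0.76 to 0.29, adjusted p = 0.483, edgeR) for LATS1/2-KO against control and -0.42 (-0.95 to 0.10, adjusted p = 0.201, edgeR) for LATS1/2-Sox9-KO against control. Per 100 counts of Sox9 in the same library, Sox10 made 12.5, 17.8 and 7.16 in control, 24.7, 27.2 and 19.7 in LATS1/2-KO and 25, 27.1 and 30.1 in LATS1/2-Sox9-KO. Every library under a deletion label was above every control library in this ratio, as Sox9 was lower there. Control replicate 3 had the lowest counts of Sox10, Sox5 and Sox15 in its group, and it also differed from the others in markers of cell types. Its sum of 8 luminal progenitor markers was 127203 normalized counts, beside 168907 and 178360 in the other control libraries, and its sum of 8 mature luminal markers was 346723, beside 288669 and 258860. Of the mature luminal sum Prlr alone gave 201218, beside 175235 and 152419. Foxa1 and Cited1 of the same list had their lowest control counts there (genes named after their values were seen). In this library the sum of 7 fibroblast markers was 9330, beside 2359 and 4202, of which Dcn alone gave 8161, beside 1626 and 3291. Of the other fibroblast markers, Lum, Col1a1 and Col3a1 also had their highest control counts there and Pdgfra, Dpt and Pdgfrb their lowest. The part of this library in the spread was examined only by leaving it out, which changed no call of Sox10.

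Sox8, the other SoxE gene, was not among the 10 members and was also lower under the deletion labels. It had 189, 212 and 108 normalized counts in control, 49.1, 33.0 and 48.3 in LATS1/2-KO and 22.3, 30.9 and 18.2 in LATS1/2-Sox9-KO. It was called lower in LATS1/2-KO (log2 fold change -1.96 ± 0.37 SE, adjusted p = 0.00124, edgeR) and in LATS1/2-Sox9-KO against control (-2.83 ± 0.38 SE, adjusted p = 0.000144, edgeR). Its exons overlap those of 2810468N07Rik on the opposite strand.

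Cartilage matrix genes to which SOX9, SOX5 and SOX6 are known to bind were counted beside the SoxD and SoxE genes. Of 13 listed, 10 were tested, and 2 were called higher (Col11a1 and Matn3) and 2 lower (Col11a2 and Snorc) in LATS1/2-KO against control, beside the 17.1% and 17.5% of all genes. Matn3, named after its values were seen, had no count in control and 48, 10 and 4 counts in LATS1/2-KO. It passed the filter only through the deletion labels, and its call was not recomputed under the alternatives. Between the deletion labels 5 were called lower and none higher, and their median log2 fold change was -1.56, where 2.16% of all genes were called lower. Their summed count, of which Col11a1 was the largest part over all 9 libraries and Snorc in control, was 3951, 3333 and 3960 in the libraries labelled LATS1/2-KO and 1051, 1079 and 1222 in those labelled LATS1/2-Sox9-KO. The control libraries had 6525, 6689 and 4530. Acan, the gene of the main cartilage proteoglycan, had at most 3 counts in every library.

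Col11a1, a fibrillar collagen gene, had 810, 908 and 505 normalized counts in control, 1045, 1683 and 2381 in LATS1/2-KO and 486, 638 and 719 in LATS1/2-Sox9-KO. Against control it was higher in LATS1/2-KO (log2 fold change 1.20 ± 0.31 SE, adjusted p = 0.00824, edgeR) and lower in LATS1/2-Sox9-KO than in LATS1/2-KO (-1.47 ± 0.31 SE, adjusted p = 0.0261, edgeR). Its partner gene Col11a2 was lower in LATS1/2-KO than in control (-2.14 ± 0.35 SE, adjusted p = 0.000574, edgeR). Snorc, a cartilage proteoglycan gene, had 2238, 1712 and 2050 normalized counts in control, 185, 4.24 and 31.9 in LATS1/2-KO and 0, 0 and 3.64 in LATS1/2-Sox9-KO. The other genes called lower between the deletion labels, named after their values were seen, were Col9a1 (log2 fold change -3.27), Col9a2 (-2.85) and Cnmd (-4.24), the first of which had 678, 187 and 309 normalized counts in LATS1/2-KO and 33.4, 25.9 and 61.9 in LATS1/2-Sox9-KO. Each of these 5 calls between the deletion labels was lost without LATS1/2-KO replicate 3 and without LATS1/2-Sox9-KO replicate 1 or 2, and those of Col11a1, Cnmd and Snorc without further libraries as well. Without LATS1/2-KO replicate 3 the log2 fold changes were -1.15 for Col11a1, -3.41 for Col9a1, -2.82 for Col9a2 and -4.47 for Cnmd. Over all left-out libraries they ranged from -3.69 to -2.61 for Col9a1, from -3.24 to -2.30 for Col9a2 and from -4.70 to -3.06 for Cnmd, the last without LATS1/2-KO replicate 2. For Snorc, with 0, 0 and 4 counts under LATS1/2-Sox9-KO, the fitted value ran from -9.15 without LATS1/2-Sox9-KO replicate 3 to -3.70 without LATS1/2-KO replicate 1 and its size has little meaning. The higher call of Col11a1 fell short of the fold threshold without LATS1/2-KO replicate 3 (0.89) or control replicate 3 (0.97).

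**Figure D4:**
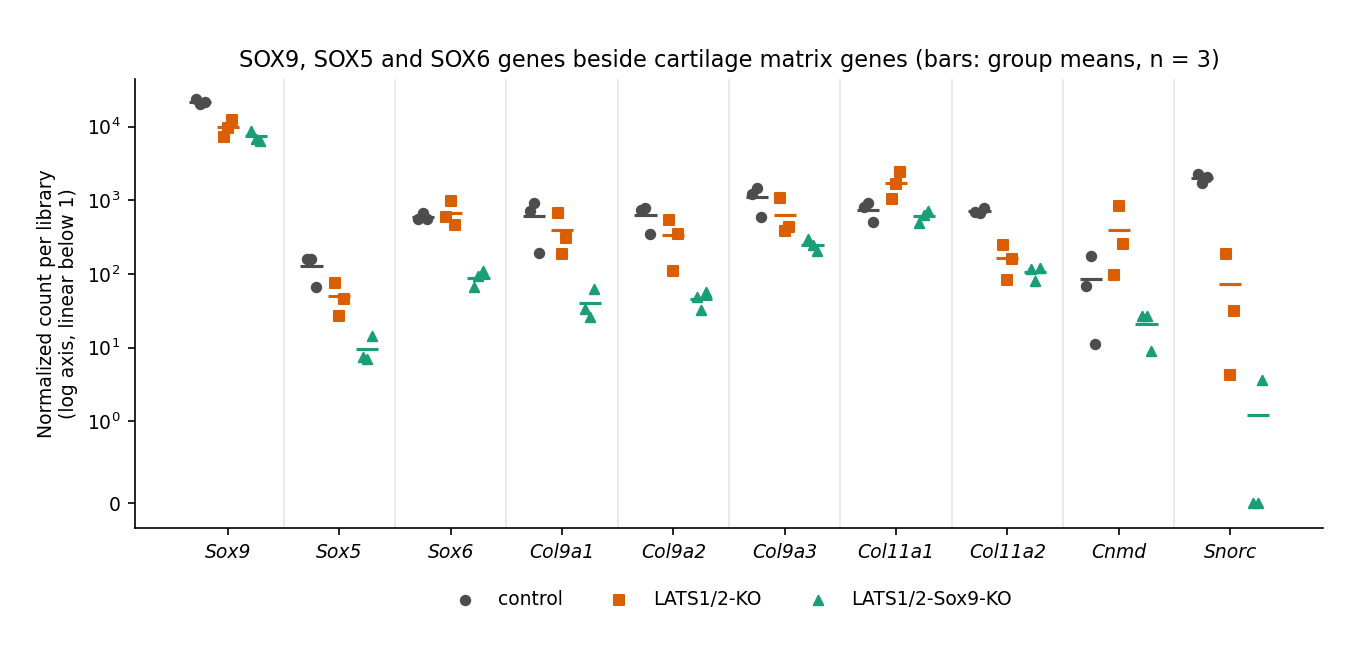
Normalized counts (log axis, linear below 1) of Sox9, Sox5 and Sox6 and of 7 cartilage matrix genes in each library, with bars at group means (n = 3). Sox6, Sox5, Col9a1, Col9a2, Col9a3 and Snorc have their 3 lowest libraries under the label LATS1/2-Sox9-KO. Col11a1, Col11a2 and Cnmd do not, nor does Sox9, whose LATS1/2-KO and LATS1/2-Sox9-KO libraries overlap.

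Some glial and melanocyte genes that SOX10 is known to activate were called lower than in control, and others were not called. Erbb3 and Cdh19, the latter named after its values were seen, were called lower in LATS1/2-KO against control, where 17.5% of all genes were called lower. Mbp (log2 fold change 0.26) and Mitf (0.34), named here after their values were seen, were not called in that comparison. Erbb3, a receptor of the EGF receptor family that mammary cells also express, had 19787, 22660 and 26264 normalized counts in control and 6770, 6568 and 7943 in LATS1/2-KO (log2 fold change -1.69 ± 0.14 SE, adjusted p = 9.34e-06, edgeR). Mitf, the melanocyte factor, was called higher between the deletion labels, with 365, 343 and 214 normalized counts in LATS1/2-KO and 776, 681 and 492 in LATS1/2-Sox9-KO (log2 fold change 1.08, adjusted p = 0.0325, edgeR). Mitf is named after its values were seen, and its call was lost in 7 of 15 alternatives, with 0.88 without LATS1/2-KO replicate 3 (adjusted p = 0.089, edgeR). The call of Cdh19 was lost without LATS1/2-KO replicate 1 or 2 or control replicate 2 or 3, with log2 fold changes from -1.62 to -1.14. The melanocyte gene Dct had no count in any library.

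Sox15 (ENSMUSG00000041287, chr11:69655314-69656727), the only SoxG gene, also stepped down. It had 124, 116 and 87.1 normalized counts in control, 72.2, 57.6 and 63.8 in LATS1/2-KO and 27.9, 31.9 and 24.6 in LATS1/2-Sox9-KO, and no groups overlapped. It was called in LATS1/2-Sox9-KO against control (log2 fold change -1.95 ± 0.30 SE, adjusted p = 0.000364, edgeR). LATS1/2-KO against control gave -0.76 ± 0.29 (SE, adjusted p = 0.0488, edgeR), short of the fold threshold. The call between the deletion labels (-1.20 ± 0.30 SE, adjusted p = 0.0458, edgeR) lay close to the threshold and was lost in 11 of 15 alternatives, among them the leaving out of any library but control replicate 3. Exons of Mpdu1 on the opposite strand overlap those of Sox15.

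Sox2 (ENSMUSG00000074637, chr3:34650405-34652461), the SoxB1 factor of pluripotent cells and neural stem cells, was not detectable above the floor. Its counts were 0, 0 and 0 in control, 0, 1 and 0 in LATS1/2-KO and 2, 1 and 0 in LATS1/2-Sox9-KO, all at or under 3 counts, and it was not tested. Of 10 listed partners and targets of SOX2 in pluripotent cells, 5 were tested and 3 others, Lin28a, Sall4 and Fgf4, had at most 3 counts in every library. Klf4, which epithelia also express, was the most counted. It had 46021, 43233 and 39581 normalized counts in control and 13737, 15875 and 16608 in LATS1/2-KO (log2 fold change -1.48 ± 0.16 SE, adjusted p = 4.54e-05, edgeR). Esrrb, an orphan nuclear receptor gene, had 1720, 1264 and 408 in control and at most 34.7 in LATS1/2-KO (-6.48 ± 1.13 SE, adjusted p = 0.000809, edgeR). The size of this difference rested on LATS1/2-KO replicate 3, without which it was -9.54. Lin28b, named after its values were seen, had no count in control and 30.1, 23.7 and 40.1 normalized counts in LATS1/2-KO.

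The family was also looked at beyond the 10 members. Of the other 10 Sox genes in the table, 5 passed the filter. In LATS1/2-KO against control Sox21 was called higher and Sox8 lower, beside 17.1% and 17.5% of all genes. Sox21, a SoxB2 repressor, was high under the deletion labels, as Sox11 was. It had 15.1, 18.1 and 4.98 normalized counts in control, 469, 571 and 625 in LATS1/2-KO and 190, 212 and 247 in LATS1/2-Sox9-KO, without overlap. Its log2 fold changes were 5.42 ± 0.39 (SE, adjusted p = 4.68e-06, edgeR) in LATS1/2-KO against control and -1.36 ± 0.31 (SE, adjusted p = 0.0315, edgeR) between the deletion labels, and the latter call was lost in 6 of 14 alternatives, among them the replicate block and the fits without LATS1/2-KO replicates 2 or 3 or any library labelled LATS1/2-Sox9-KO, with log2 fold changes from -1.44 to -1.25. Sox14, the other SoxB2 gene, was called in LATS1/2-Sox9-KO against control alone (-1.50 ± 0.52 SE, adjusted p = 0.0313, edgeR), where the groups overlapped. That call was lost with a replicate block (-1.43, adjusted p = 0.0555, edgeR) and without control replicates 1 or 2 or LATS1/2-Sox9-KO replicates 1 or 3, with values from -1.37 to -1.11. The SoxF genes Sox7 and Sox17, known from endothelium, were not called in any comparison, and their highest normalized counts were 51.0 and 19.9. Sox1 and Sry had no count, and Sox3, Sox18 and Sox30 stayed below the filter.

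Genes most alike to Sox11 over the 9 libraries were Tuba1a (r = 0.998), a tubulin gene of young neurons, Uchl1 (0.997), a ubiquitin hydrolase gene, and Fscn1 (0.995), an actin-bundling gene. For Sox4 they were Syt12 (0.952), Dpysl5 (0.937) and Megf6 (0.907), and for Sox10 Rpl35a (0.931), Taf4b (0.921) and Rps6-ps4 (0.906). These values are descriptions over 9 libraries in 3 groups.

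Other DNA-binding factors with an HMG box were counted in the same way. Of 7 listed (Tcf7, Tcf7l1, Tcf7l2, Lef1, Hbp1, Bbx and Cic), 6 were tested, and in LATS1/2-KO against control 1 was called higher and 2 lower, beside 17.1% and 17.5% of all genes. Tcf7, a factor of Wnt signalling, had 362, 263 and 279 normalized counts in control, 554, 802 and 1274 in LATS1/2-KO and 262, 296 and 343 in LATS1/2-Sox9-KO. Against control it was higher in LATS1/2-KO (log2 fold change 1.54 ± 0.29 SE, adjusted p = 0.0014, edgeR) and lower again in LATS1/2-Sox9-KO than in LATS1/2-KO (-1.54 ± 0.29 SE, adjusted p = 0.0172, edgeR), and the latter call was lost without LATS1/2-Sox9-KO replicate 1 (-1.43) or 2 (-1.51). Tcf7l2, another Wnt factor, was lower in LATS1/2-KO than in control (-2.13 ± 0.24 SE, adjusted p = 6.28e-05, edgeR), as was the repressor gene Cic (-1.77 ± 0.17 SE, adjusted p = 1.85e-05, edgeR). In LATS1/2-Sox9-KO against control these 2 were called lower and none of the 6 higher, beside 19.6% and 17.8% of all genes. Tcf7 was the 1 factor called between the deletion labels, where 2.16% of all genes were called lower and 1.55% higher. Lef1 had at most 1 count per library.

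Markers of the cells in the sort moved between groups beside the Sox genes. In LATS1/2-KO against control 17.1% of all genes were called higher and 17.5% lower. Of 8 mature luminal markers 7 were called lower and none higher there, with Pgr, the progesterone receptor gene, at -5.91 and Cited1 at -5.19 on the log2 scale. Without LATS1/2-KO replicate 1 these were -6.56 and -6.77. Of 10 basal markers 5 were called higher and 3 lower, with Krt14 at 8.04 and Krt17 at 3.99 and with Trp63 at -4.82 and Myh11 at -2.22. Of 8 luminal progenitor markers 1 was higher (Lcn2, 1.08, but 0.89 without LATS1/2-KO replicate 2 and 0.75 without control replicate 3, which ended the call) and 1 lower (Prom1, -4.63, with -6.02 without LATS1/2-KO replicate 1 and -4.03 without control replicate 3). Prom1 is also known from hormone-receptor-positive luminal cells of the mouse gland, and its control counts of 12160, 19028 and 40653 were highest in replicate 3. Of the mature luminal markers, Pgr, Prlr, Esr1, Areg, Gata3 and Ly6a were also highest in that library, but Foxa1 (19012) and Cited1 (11466) were lowest. The progenitor markers Kit, Elf5 and Cd14 were lowest there too (genes named after their values were seen). Between the deletion labels 1.55% of all genes were called higher and 2.16% lower. In that comparison 3 of the 8 progenitor markers were called lower, Csn3, Lcn2 and Cd14, named after their values were seen. Of these, Csn3 alone kept its call in all 15 alternatives. The summed count of the 8 was 129506, 197097 and 155850 in LATS1/2-KO and 82692, 73011 and 75936 in LATS1/2-Sox9-KO. Also named after their values were seen, other markers called in this comparison were basal Krt17 (2.76) higher and Cnn1 (-2.09), Acta2 (-1.34) and Oxtr (-2.55) lower, mature luminal Ly6a (2.21) higher and Pgr (-3.43) lower, endothelial Tek (-2.27) lower and Schwann cell Egr2 (-1.65) lower. The calls of Krt17, Cnn1, Acta2 and Egr2 were kept in all 15 alternatives. That of Ly6a was lost without LATS1/2-KO replicate 3 (2.03), those of Pgr (-3.06) and Tek (-2.42) without LATS1/2-Sox9-KO replicate 2, and that of Oxtr in 8 of 15 alternatives, with -1.50 without LATS1/2-KO replicate 2. The log2 fold change of Pgr was -2.77 without LATS1/2-KO replicate 1. Among Schwann cell markers Gfra3 was called lower in LATS1/2-KO (-5.77, with -7.31 without LATS1/2-KO replicate 1 and -5.18 without replicate 2), Foxd3 had at most 3 counts in every library, and Mbp, the most counted, was not called. Of 7 endothelial markers 1 was called higher (Kdr) and 1 lower (Vwf, the most counted), near the shares of all genes. The median log2 fold change of the 7 was 0.84. The summed count of the 7 was 6001, 5018 and 5883 in control and 996, 765 and 797 in LATS1/2-KO, a difference that came from Vwf (mean 5132 in control and 162 in LATS1/2-KO). Of 7 fibroblast markers 3 were called higher (Col3a1, Lum and Col1a1) and Dcn, the most counted over all 9 libraries, lower, and the calls of Lum, Col1a1 and Dcn were each lost without some single libraries, as was that of Kdr without LATS1/2-KO replicate 3 (2.04). Without LATS1/2-KO replicate 1 the log2 fold change went from 2.62 to 1.57 for Lum and from 1.90 to 0.81 for Col1a1. Over all left-out libraries it ranged from 1.57 to 3.76 for Lum and from 0.81 to 2.28 for Col1a1. That of Dcn went from -2.24 to -1.43 without control replicate 3 (adjusted p = 0.18, edgeR), and its call was also lost without control replicate 2, any library labelled LATS1/2-KO or LATS1/2-Sox9-KO replicate 2. Among immune markers 4 of 7 were tested and none was called in LATS1/2-KO against control, Cd3e and Ms4a1 had no count, and Cd68 was the most counted. In LATS1/2-Sox9-KO against control 17.8% of all genes were called higher and 19.6% lower, and 6 members were called lower and Sox11 higher. In this comparison 5 of the 8 luminal progenitor markers were called lower and none higher (Prom1, Csn3, Kit, Elf5 and Cd14). There 7 of the 8 mature luminal markers were called lower and Ly6a higher, and 4 of the 10 basal markers were called higher (Krt14, Krt17, Acta2 and Krt5) and 4 lower (Trp63, Mylk, Oxtr and Myh11). Of the endothelial markers Kdr was called higher and Vwf and Tek lower, of the fibroblast markers Col3a1 and Col1a1 higher and Dcn and Pdgfra lower, and of the immune markers Adgre1 higher (2.69, adjusted p = 0.0348, edgeR). Markers of this comparison that the earlier sentences do not name are given after their values were seen. Of these calls, that of Cd14 was lost without LATS1/2-Sox9-KO replicate 2 (-0.98) or control replicate 1 (-0.93) or 2 (-0.98), that of Krt5 in 6 of 15 alternatives (1.16 without LATS1/2-Sox9-KO replicate 2), that of Oxtr without LATS1/2-Sox9-KO replicate 1 (-1.86) or 3 (-1.75), that of Myh11 without LATS1/2-Sox9-KO replicate 1 (-0.99) and that of Adgre1 without LATS1/2-Sox9-KO replicate 1 or 3 or control replicate 1 or 2 (2.17 to 2.80). Over all left-out libraries the log2 fold change of Adgre1 in LATS1/2-Sox9-KO against control ranged from 2.17 to 4.03. The part that cells of all these marker lists had in the counts of the Sox genes was not tested.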

How the data were processed

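The sources state that the authors aligned reads of TruSeq RNA v2 libraries to mm10 with STAR 2.6.0c and deposited raw gene counts made with featureCounts (Subread 1.6.2) from Ensembl annotation, without mitochondrial genes. Replicates were not pooled. From these counts, normalized counts and tests were computed with edgeR 4.0.16 in R 4.3.3 (TMM factors, filterByExpr, quasi-likelihood F test over all 9 libraries, Benjamini-Hochberg adjustment over 19357 genes). DESeq2 1.42.0, other scalings and filters, a replicate block and the leaving out of each library were alternatives. An interval is 1.96 standard errors on either side. The code was tested on simulated data. Exon lengths and coordinates are from GENCODE M21 (GRCm38). Of 10 Sox genes, Sox2 did not pass the filter. The members and gene lists were chosen with earlier results of these data known. Named were all Sox genes, Lats1 and Lats2, and from each list at most the 2 largest increases and 2 largest decreases among genes called in LATS1/2-KO against control that averaged 100 or more normalized counts in their higher group, with the most counted gene of a list without calls and the most counted gene and markers at 0 of other cell types, and for Sox4, Sox9, Sox10 and Sox11 the 3 most alike genes. Other names are given as chosen after their values were seen. Some genes of the lists, and the counts of the lists that hold them, are not reported here. The labels do not say whether libraries of a group came from separate mice, so p-values measure the spread between these samples, which may be technical, and no batch is labelled. The smallest exact permutation p of 3 against 3 libraries is 0.1, so single values were tested only within the fit over all genes.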

Additional observations from a re-analysis of the deposited data

How the results depend on the processing

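Each Sox gene and comparison was recomputed under up to 15 alternatives. For the 9 tested members this gave 399 values, of which 359 kept their direction and side of the threshold, 34 lost a call, 4 gained one and 2 changed sign without a call. The members called higher against control numbered 0 in both comparisons when at least 10 counts were required in every library, which removes Sox11 by construction. Between the deletion labels, the members called lower numbered 5 by DESeq2, which added Sox12, 3 with at least 10 counts in every library, 1 with only these groups in the fit, 2 with the replicate block and 1 to 4 with a library left out. Over all genes, DESeq2 called 489 higher and 744 lower there, and leaving out a library gave 121 to 497 higher and 78 to 582 lower, against 301 and 418. The longest transcript in place of all exons moved the control levels of Sox5 to 17.7 and Sox6 to 68.7 per kb. All sign changes came from leaving out a library and none was of a called value. In LATS1/2-KO against control Sox6 turned to -0.19 (range over left-out libraries -0.19 to 0.41), Sox10 to 0.02 (-0.52 to 0.02), Sox14 to 0.11 (-0.69 to 0.11), Sox7 to 0.06 and 0.45 (-0.56 to 0.45) and Sox17 to -0.16 or -0.23 (-0.23 to 1.73). Between the deletion labels Sox7 turned to 0.22 and 0.29 (-0.41 to 0.29) and Lats2 to -0.04 (-0.04 to 0.29), and in LATS1/2-Sox9-KO against control Sox7 to 0.02 and 0.38 (-0.68 to 0.38) and Sox17 to 0.03 and 1.11 (-0.92 to 1.11). The cause was not tested. Replicate numbers did not pair the libraries, since the deviations of same-numbered libraries correlated between -0.0657 and 0.17. The replicate block ended the calls of Sox5 in LATS1/2-KO against control (-1.42, adjusted p = 0.0537, edgeR) and of Sox5, Sox15 and Sox21 between the deletion labels (-2.26, -1.20 and -1.35), of Snorc (-5.30) and Lcn2 (-1.30) there, and of Sox14 (-1.43) and Krt5 (1.56) in LATS1/2-Sox9-KO against control. It changed no other call of the genes named in these comparisons that were recomputed. Counts of Sox2, Sox7 and Sox17 were too few to show any but large differences.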
